A study of Homo sapiens with 8 samples.

Results

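Levels of 9 long noncoding RNA genes linked to the nucleus and to stress, *NEAT1*, *MALAT1*, *GAS5*, *SNHG1*, *SNHG5*, *SNHG8*, *SNHG12*, *SNHG15* and *EPB41L4A-AS1*, were followed by name in all 8 RNA-seq libraries of the series. They are 9 of the 57815 gene identifiers in the expression files, and all 9 were found and tested in every comparison. The libraries came from ABC1 and HCC4006, established human lung adenocarcinoma cell lines without *KEAP1* or *NRF2* mutations, which the study calls NRF2-normal. Cells of each line were given 100 μM DEM (diethyl maleate, an electrophile that inhibits KEAP1 and so raises NRF2) or the vehicle DMSO for 16 h. Each of the 4 groups, ABC1 with vehicle, ABC1 with DEM, HCC4006 with vehicle and HCC4006 with DEM, held 2 libraries, numbered 0 and 1, which the study's methods describe as biological duplicates. Each line stands for 1 tumour, so a difference between the lines cannot be told apart from one of culture or of library preparation.

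*NEAT1* and *MALAT1* are long nuclear RNAs transcribed from neighbouring genes. *NEAT1* builds paraspeckles, nuclear bodies that form around its longer isoform, and *MALAT1* gathers at nuclear speckles, where splicing factors are stored. The other genes are spliced noncoding RNAs whose introns carry small nucleolar RNAs (snoRNAs), which guide the chemical modification of ribosomal RNA. Many such host RNAs begin with a run of pyrimidines like that of ribosomal protein mRNAs, are read by ribosomes although they code for little, and are broken down by nonsense-mediated decay, so that stress that slows translation is known to raise their level. *GAS5* was first found as a gene whose RNA builds up in growth-arrested cells. The long isoform of *NEAT1* and the mature *MALAT1* end in a structure other than a poly(A) tail, and these libraries were made from poly(A)-selected RNA.

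In GENCODE gene models on GRCh37, *NEAT1* lies on chr11:65190245-65213011 and *MALAT1* on chr11:65265111-65275544, both on the plus strand, and neither holds a snoRNA in RefSeq. RefSeq places 29 snoRNAs or snoRNA-like genes inside the 7 hosts, 11 of them in *GAS5* (chr1:173827697-173838020, minus strand), 9 in *SNHG1* (chr11:62619450-62623425, minus strand), 4 in *SNHG12* (chr1:28905050-28909644, minus strand) and 2 in *SNHG5* (chr6:86360209-86388650, minus strand). The remaining hosts hold 1 each, SNORA24 in *SNHG8* (chr4:119199858-119206471, plus strand), SNORA9 in *SNHG15* (chr7:45022618-45026560, minus strand) and SNORA13 in *EPB41L4A-AS1* (chr5:111496223-111500515, plus strand). The GENCODE annotation held a snoRNA inside 3 of the hosts, and these are shown 5′ to 3′ from the GRCh37 genome because they are what makes these genes hosts. Capitals mark the C box core TGATG and the D box CTGA of the C/D class, which guides methylation, and the ACA box of the H/ACA class, which guides pseudouridylation.
SNORD78 in *GAS5*, chr1:173834760-173834824, minus strand: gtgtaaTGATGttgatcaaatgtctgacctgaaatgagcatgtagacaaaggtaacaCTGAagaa
SNORD99 in *SNHG12*, chr1:28905261-28905334, minus strand: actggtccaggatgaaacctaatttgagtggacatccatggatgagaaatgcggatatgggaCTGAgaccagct
SNORA13 in *EPB41L4A-AS1*, chr5:111497182-111497314, plus strand: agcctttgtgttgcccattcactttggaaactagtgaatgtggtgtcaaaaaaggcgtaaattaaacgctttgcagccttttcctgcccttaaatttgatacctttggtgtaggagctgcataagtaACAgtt

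SNORD78 and SNORA13 fall inside an exon of a GENCODE transcript model of their host, and SNORD99 does not. These 3 snoRNAs were at 0 FPKM in all 8 libraries. Among the 1457 snoRNA genes of the files, 62 were above 0 in any library and 4 in all, so the values below describe the host RNAs and not the snoRNAs released from them.

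The starts of the hosts are shown because of the pyrimidine run that is known for this class of gene. RefSeq promoters (GRCh38.p14) were found for 7 of the 9 genes, all but *NEAT1* and *SNHG15*. Each line below runs 5′ to 3′ from 10 bases before the annotated start to 50 bases after it, with the longest run of C and T in capitals, for the 4 hosts in which that run began within 5 bases of the start.
SNHG12, chr1:28581824-28581883, minus strand: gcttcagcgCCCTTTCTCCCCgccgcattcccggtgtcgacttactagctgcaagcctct
SNHG1, chr11:62855836-62855895, minus strand: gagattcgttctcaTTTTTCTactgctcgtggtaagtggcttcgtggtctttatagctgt
SNHG5, chr6:85678684-85678743, minus strand: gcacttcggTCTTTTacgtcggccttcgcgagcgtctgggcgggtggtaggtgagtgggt
SNHG8, chr4:118278752-118278811, plus strand: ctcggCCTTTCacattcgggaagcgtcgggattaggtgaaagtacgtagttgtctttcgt

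The run of *SNHG12* was 12 bases long, a length reached in 4.36% of the 35116 RefSeq promoters in the same window. This share and those that follow count a run anywhere in the window, not only near the start. That of *SNHG1* was 7 bases long, reached in 32.6%, and those of *SNHG5* and *SNHG8* were 6 bases long, reached in 48.1%. The run began at base 5 in *SNHG1* and at base -5 in *SNHG8*. Most of the *SNHG8* run thus lies before the annotated start and outside the annotated RNA. The hosts not shown had their longest run farther in, at base 32 in *GAS5* (8 bases) and base 30 in *EPB41L4A-AS1* (6 bases). At the upstream start of *MALAT1*, which is not a host, the run was 11 bases long and began at base -10. The start these cells used was not measured.

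Targets of NRF2 rose with DEM in both lines. *NQO1*, an NRF2 target that encodes a quinone reductase, rose by 1.59 on the log2 scale in ABC1 and by 0.89 in HCC4006 (limma on log2(FPKM + 1), Benjamini-Hochberg adjusted p = 0.0422 and 0.0018). *HMOX1*, which encodes the heme oxygenase, rose by 3.19 and 3.09 (adjusted p = 0.0043 and 0.0001). The epithelial markers *EPCAM*, *KRT8*, *KRT18*, *KRT19* and *CDH1* lay at or above 92.4 FPKM in all 8 libraries, while the lung lineage factor *NKX2-1* lay between 42.4 and 47.1 FPKM in HCC4006 and at no more than 0.763 FPKM in ABC1. The adenocarcinoma marker *NAPSA* lay between 12.9 and 16.0 FPKM in HCC4006 and at no more than 0.646 FPKM in ABC1, *KRT7* at or above 1460 and at or under 25.9 FPKM, and the surfactant genes *SFTPB* and *SFTPC* at or under 0.277 FPKM in both lines. The leukocyte marker *PTPRC* and the fibroblast marker *DCN* were at or under 0.192 FPKM in every library, and *COL1A1* reached 7.64 FPKM. The FPKM values of a library summed to between 627085 and 737534, and replicates correlated across genes with r between 0.992 and 0.995. In RNA from whole cultures, fewer cells that make a transcript and less of it per cell cannot be told apart.

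In the vehicle-treated cells, *NEAT1* was higher in HCC4006 and most of the snoRNA hosts were higher in ABC1. The vehicle-treated lines differed at an adjusted p under 0.05 for 67.7% of the 13747 genes tested, 37.3% higher and 30.4% lower in HCC4006, so a call in this comparison was the common case. Among the 9 genes, 1 was called higher in HCC4006 (*NEAT1*) and 5 lower (*GAS5*, *SNHG1*, *SNHG5*, *SNHG8* and *EPB41L4A-AS1*). All 7 hosts had a log2 difference under 0, with a median of -1.30, beside a median of 0.07 over all genes tested.

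*NEAT1* was at 43.0 and 23.3 FPKM in ABC1 with vehicle, 54.1 and 30.5 FPKM in ABC1 with DEM, 226 and 220.0 FPKM in HCC4006 with vehicle, and 231 and 211 FPKM in HCC4006 with DEM. All 4 HCC4006 libraries were above all 4 ABC1 libraries. The vehicle-treated libraries alone did not overlap for 45.6% of all genes in this direction and 39.5% in the other. The vehicle means were 33.2 ± 13.9 FPKM in ABC1 and 223 ± 4.48 FPKM in HCC4006 (SD, n = 2 each), which is a ratio of 6.73, and the log2 difference was 2.78 (SE 0.28, 95% interval 2.07 to 3.48, limma adjusted p = 0.0006).

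*MALAT1* was at 125 and 65.1 FPKM in ABC1 with vehicle, 226 and 135 FPKM in ABC1 with DEM, 95.7 and 95.7 FPKM in HCC4006 with vehicle, and 150.2 and 149 FPKM in HCC4006 with DEM. The lines thus overlapped. The vehicle means were 94.9 ± 42.0 FPKM in ABC1 and 95.7 ± 0.00841 FPKM in HCC4006 (SD, n = 2 each), and the log2 difference of 0.09 had an interval of -0.67 to 0.85 (SE 0.30, limma adjusted p = 0.810). That difference changed sign and call with single ABC1 libraries. Without vehicle replicate 0 it was 0.55 and called higher in HCC4006 (adjusted p = 0.0059), and without vehicle replicate 1 it was -0.38 and called lower (adjusted p = 0.0131).

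The spread between ABC1 duplicates was shared by both nuclear RNAs. In ABC1, *NEAT1* in replicate 0 was 1.84 times its level in replicate 1 with vehicle and 1.77 times with DEM, and *MALAT1* was 1.91 and 1.67 times. In HCC4006 none of the same ratios exceeded 1.10. The source of the ABC1 spread was not tested.

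**Figure D1:**
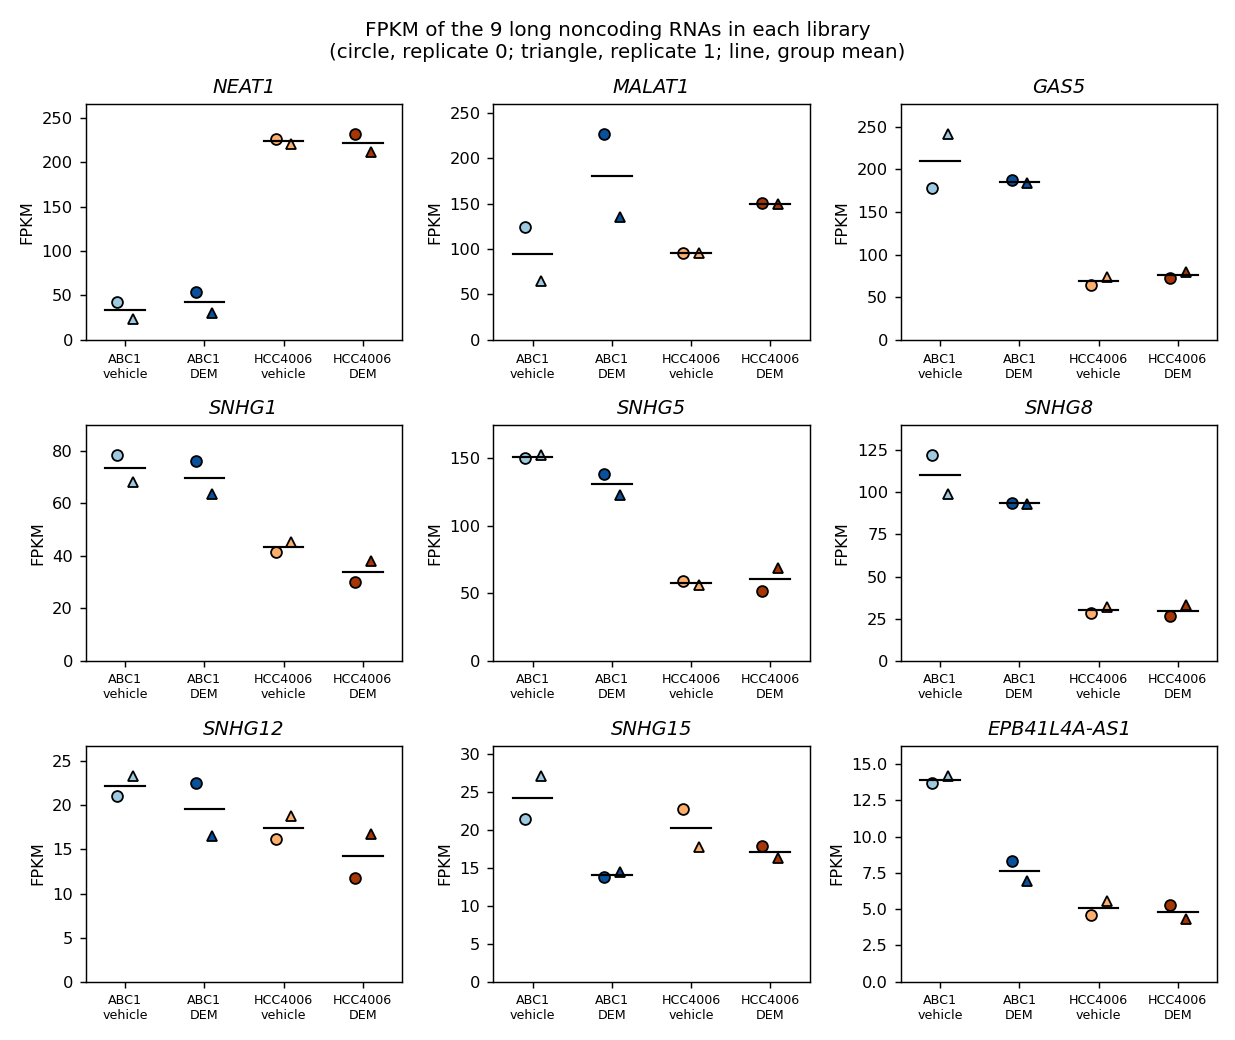
FPKM of each of the 9 genes in every library on a linear axis from 0, with 1 panel for each gene, a circle for replicate 0, a triangle for replicate 1 and a line for the mean of the 2 libraries of a group. *NEAT1* sits at or above 211 FPKM in all 4 HCC4006 libraries and at or under 54.1 FPKM in all 4 ABC1 libraries, while 5 of the 7 hosts are higher in ABC1.

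Among the hosts, *SNHG8* differed most between the lines. It was at 122 and 99.2 FPKM in ABC1 with vehicle, 93.5 and 93.2 with DEM, 28.2 and 31.9 in HCC4006 with vehicle, and 26.4 and 33.2 with DEM. ABC1 libraries were all above HCC4006 libraries, and the vehicle means of 110.5 ± 16.0 FPKM in ABC1 and 30.0 ± 2.60 FPKM in HCC4006 (SD, n = 2 each) gave a ratio of 3.68 and a log2 difference of -1.84 (SE 0.13, limma adjusted p = 0.0002). *PRSS12*, a protease gene that overlaps the GENCODE model of *SNHG8* by 5279 bases on the opposite strand, was also higher in ABC1, at 44.5 and 55.3 FPKM with vehicle against 0.216 and 0.212 FPKM in HCC4006. The library kit kept the strand, but whether the counting used it is not given in the sources used here, so the share of *PRSS12* reads in the *SNHG8* value was not tested.

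*GAS5*, host of the largest number of snoRNAs here, had the highest level of the 9 genes in ABC1 with vehicle. It was at 178 and 241 FPKM in ABC1 with vehicle, 187 and 184 with DEM, 64.5 and 73.8 in HCC4006 with vehicle, and 72.5 and 79.1 with DEM. The lines did not overlap. The vehicle means were 209 ± 44.5 and 69.2 ± 6.58 FPKM (SD, n = 2 each), a ratio of 3.03 in favour of ABC1, with a log2 difference of -1.57 (SE 0.17, limma adjusted p = 0.0008).

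*SNHG5*, which carries SNORD50A and SNORD50B, was at 150.4 and 152 FPKM in ABC1 with vehicle, 138 and 123 with DEM, 59.1 and 56.3 in HCC4006 with vehicle, and 51.5 and 69.1 with DEM. Its ABC1 levels were again all above its HCC4006 levels, with a vehicle ratio of 2.62 and a log2 difference of -1.38 (SE 0.08, limma adjusted p = 0.0001). *EPB41L4A-AS1* had the lowest level of the 9 genes in both lines and followed the same order. It was at 13.7 and 14.2 FPKM in ABC1 with vehicle, 8.29 and 6.97 with DEM, 4.57 and 5.59 in HCC4006 with vehicle, and 5.30 and 4.32 with DEM. The lines did not overlap, the vehicle ratio was 2.74, and the log2 difference was -1.30 (SE 0.13, limma adjusted p = 0.0005). *EPB41L4A*, which overlaps all 4293 bases of *EPB41L4A-AS1* on the opposite strand, was also higher in ABC1 (log2 difference -0.86, adjusted p = 0.0157), and the share of its reads in the *EPB41L4A-AS1* value was not tested.

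*SNHG1*, the host of a cluster of C/D snoRNAs, was at 78.1 and 68.2 FPKM in ABC1 with vehicle, 76.1 and 63.3 with DEM, 41.3 and 45.2 in HCC4006 with vehicle, and 29.9 and 38.0 with DEM. ABC1 was above HCC4006 in every library, with a vehicle ratio of 1.69 and a log2 difference of -0.74 (SE 0.11, limma adjusted p = 0.0024). Without HCC4006 vehicle replicate 0 the call was lost (adjusted p = 0.0588).

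For *SNHG12* and *SNHG15* the lines overlapped. *SNHG12* was at 21.1 and 23.3 FPKM in ABC1 with vehicle, 22.5 and 16.6 with DEM, 16.2 and 18.8 in HCC4006 with vehicle, and 11.8 and 16.8 with DEM. Its log2 difference between vehicle groups was -0.33 (SE 0.12, limma adjusted p = 0.0541), and it was called with a minimum of 5 FPKM and with median-of-ratios scaling (adjusted p = 0.0493 and 0.0300). *SNHG15* was at 21.5 and 27.1 FPKM in ABC1 with vehicle, 13.7 and 14.5 with DEM, 22.7 and 17.7 in HCC4006 with vehicle, and 17.9 and 16.3 with DEM. Its log2 difference between vehicle groups was -0.25 with an interval of -0.69 to 0.18 (limma adjusted p = 0.241).

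Over all 8 libraries, *NEAT1* was above in HCC4006 without overlap and 5 hosts were below without overlap, while 3 of the 9 genes overlapped. Over the 13682 genes that averaged at least 1 FPKM over the 8 libraries, 34.7% were higher and 28.1% lower in HCC4006 without overlap. These include genes expressed in only 1 line. The summed FPKM of the 7 hosts was 585 and 625 in ABC1 with vehicle, 540 and 501 with DEM, 237 and 249 in HCC4006 with vehicle, and 215 and 257 with DEM.

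FPKM is scaled to transcript length, so the genes were ordered by FPKM within a group. Poly(A) selection and the gene models counted also bear on these levels. The order of FPKM may therefore not be that of RNA molecules. In ABC1 with vehicle the order was *GAS5*, *SNHG5*, *SNHG8*, *MALAT1*, *SNHG1*, *NEAT1*, *SNHG15*, *SNHG12* and *EPB41L4A-AS1*. The replicate ranges overlapped between *SNHG8* and *MALAT1*, *MALAT1* and *SNHG1*, *NEAT1* and *SNHG15*, and *SNHG15* and *SNHG12*. In HCC4006 with vehicle the order was *NEAT1*, *MALAT1*, *GAS5*, *SNHG5*, *SNHG1*, *SNHG8*, *SNHG15*, *SNHG12* and *EPB41L4A-AS1*, and the neighbours *SNHG15* and *SNHG12* overlapped. With DEM, *MALAT1* stood next to *GAS5* at the top in ABC1, where their means were 181 and 185 FPKM and their ranges overlapped.

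With DEM, *MALAT1* rose in HCC4006, and no host passed the test in either line. In HCC4006, 19.1% of 13542 genes were called, 8.45% higher and 10.7% lower. Of the 9 genes, 1 was called higher (*MALAT1*) and 0 lower in this limma fit. An unadjusted p under 0.05 was found for 2 of them (*MALAT1* and *SNHG1*), beside 4985 of all 13542 genes. In ABC1, 1.2% of 12635 genes were called, 0.768% higher and 0.435% lower. Of the 9 genes, 0 were called by limma in ABC1. There, 3 of them had an unadjusted p under 0.05 (*MALAT1*, *SNHG15* and *EPB41L4A-AS1*), beside 2771 of all 12635 genes.

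In HCC4006 the mean *MALAT1* level was 95.7 ± 0.00841 FPKM with vehicle and 149.7 ± 0.699 FPKM with DEM (SD, n = 2 each), a ratio of 1.56, and both DEM libraries were above both vehicle libraries. The log2 fold change was 0.64 (SE 0.06, 95% interval 0.49 to 0.79, limma adjusted p = 0.0034). It stayed called at 0.64 when each library of the line was left out in turn, but it was not called in a model of all 8 libraries (adjusted p = 0.219), which shares 1 estimate of the spread with the ABC1 duplicates. In ABC1, *MALAT1* went from 94.9 ± 42.0 to 181 ± 64.2 FPKM (SD, n = 2 each), a ratio of 1.91. Both DEM libraries were above both vehicle libraries there too, with a log2 difference of 0.95 (SE 0.37, 95% interval 0.05 to 1.86) that did not pass the adjusted test (limma adjusted p = 0.210). With 1 library left out it was 0.49 without vehicle replicate 1, 0.58 without DEM replicate 0, 1.32 without DEM replicate 1 and 1.41 without vehicle replicate 0. *MALAT1* was called higher in ABC1 with the replicate number as a block, a pairing that no label states. The response did not pass the test of a difference between the lines (-0.31 in HCC4006 minus ABC1, SE 0.45, adjusted p = 0.820).

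*NEAT1*, the neighbour of *MALAT1* on chromosome 11, had a log2 difference of -0.02 in HCC4006 (SE 0.07, 95% interval -0.19 to 0.16, limma adjusted p = 0.895). In ABC1 its difference was 0.35 with a wide interval of -0.55 to 1.25 (SE 0.36, adjusted p = 0.613), and its DEM and vehicle libraries overlapped in both lines. With the replicate number as a block, *NEAT1* was called higher in ABC1, though no label says that a number marks a shared culture.

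The ratio of *MALAT1* to *NEAT1* within a library varied less between duplicates than either level did in ABC1. This ratio was examined after the values had been seen, so no test is given. It was 2.90 and 2.79 in ABC1 with vehicle, 4.18 and 4.44 in ABC1 with DEM, 0.423 and 0.435 in HCC4006 with vehicle, and 0.650 and 0.707 in HCC4006 with DEM. The ratio was higher with DEM in both lines without overlap, by 1.51 times in ABC1 and 1.58 times in HCC4006.

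**Figure D2:**
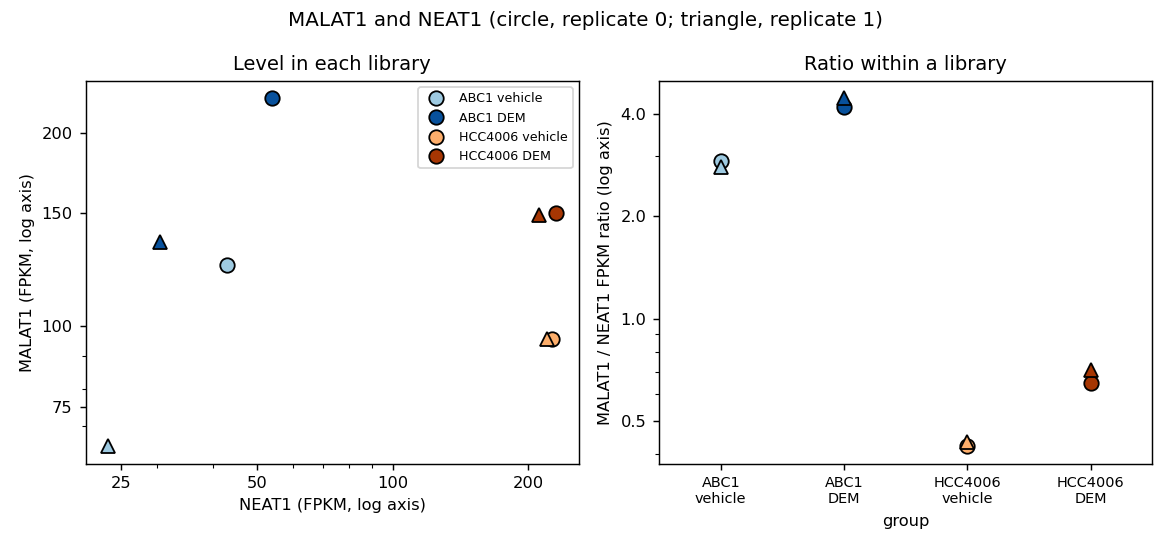
Left, *MALAT1* against *NEAT1* in FPKM for each of the 8 libraries on log axes. Right, the ratio of *MALAT1* to *NEAT1* in each library by group on a log axis, where circles are replicate 0 and triangles replicate 1. The ratio spans 2.79 to 4.44 in ABC1 cells and 0.423 to 0.707 in HCC4006 cells and is higher with DEM in both.

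The sequence at the *MALAT1* starts is shown because *MALAT1* was the gene of the 9 that passed the test with DEM. RefSeq promoters run from 250 bases before a start to 50 after it, and the table holds one for each of the annotated starts below. They were searched on both strands for the antioxidant response element core TGACNNNGC, to which NRF2 binds with a small MAF protein, for TATAAA, for the heat shock element and for the cyclic AMP response element TGACGTCA. Capitals mark the TGACNNNGC matches in the upstream promoter and TATAAA in the downstream one, each 5′ to 3′.
MALAT1 upstream start, GRCh38.p14 chr11:65497488-65497787, plus strand: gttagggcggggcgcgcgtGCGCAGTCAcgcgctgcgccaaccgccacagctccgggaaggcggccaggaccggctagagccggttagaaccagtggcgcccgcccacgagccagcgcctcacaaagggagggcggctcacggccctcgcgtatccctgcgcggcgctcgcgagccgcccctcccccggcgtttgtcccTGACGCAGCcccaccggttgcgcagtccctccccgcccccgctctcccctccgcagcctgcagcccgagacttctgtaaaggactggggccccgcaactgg
MALAT1 downstream start, GRCh38.p14 chr11:65498795-65499094, plus strand: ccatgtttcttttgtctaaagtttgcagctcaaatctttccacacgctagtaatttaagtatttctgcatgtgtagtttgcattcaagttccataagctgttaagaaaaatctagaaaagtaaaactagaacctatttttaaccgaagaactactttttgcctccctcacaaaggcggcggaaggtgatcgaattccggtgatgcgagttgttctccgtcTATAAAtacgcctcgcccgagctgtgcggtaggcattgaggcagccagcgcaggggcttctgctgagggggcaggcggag

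The upstream promoter holds TGACGCAGC beginning at base -51 from the start and, read on the other strand, GCGCAGTCA beginning at base -231. At least 1 match of TGACNNNGC was present in 13.4% of all RefSeq promoters of this length and in no other promoter of the 9 genes in the table. TATAAA, present in 11.5% of all promoters, was found at the downstream *MALAT1* start, beginning at base -30. At *SNHG1* it was found on the other strand only, beginning at base 40, after the start. The heat shock element, present in 0.490%, was found at *GAS5*, and TGACGTCA, present in 1.85%, at none. A match says which letters are there and not that a factor binds.

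No host passed the adjusted test with DEM in ABC1. All 7 log2 differences were under 0 in ABC1, with a median of -0.21 beside -0.02 over all genes tested, and 5 of 7 were under 0 in HCC4006, with a median of -0.06 beside -0.03. In ABC1, *GAS5*, *SNHG1* and *SNHG12* had overlapping DEM and vehicle libraries, and their sign turned when 1 library was left out (*GAS5* to 0.06 without vehicle replicate 1, *SNHG1* to 0.06 and *SNHG12* to 0.02 without DEM replicate 1). DEM left both libraries under both of their vehicle counterparts for 4 of the 9 genes in ABC1 (*SNHG5*, *SNHG8*, *SNHG15* and *EPB41L4A-AS1*), as they were for 28.2% of all genes tested. In HCC4006 this held for 1 of the 9 genes (*SNHG1*), beside 35.3% of all genes. *MALAT1* was above without overlap in both lines, as were 25.5% of all genes in ABC1 and 29.3% in HCC4006.

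*EPB41L4A-AS1* had the host difference farthest from 0 in ABC1. Its mean was 13.9 ± 0.313 FPKM with vehicle and 7.63 ± 0.932 with DEM (SD, n = 2 each), a ratio of 0.548 and a log2 difference of -0.79 (SE 0.14, 95% interval -1.15 to -0.44, limma adjusted p = 0.0668). It was called with a model of all 8 libraries (adjusted p = 0.0156). That model called 788 of 12635 genes lower in ABC1, in place of 55. In HCC4006 the difference was -0.06 (SE 0.15, 95% interval -0.44 to 0.31, adjusted p = 0.790). The authors' base mean of this gene, a mean of scaled counts over the 4 libraries of a line, was 196 in ABC1 and 74.5 in HCC4006, and counting error alone at that depth is 7.15% and 11.6% of the value in 1 library. *EPB41L4A*, the overlapping gene of a FERM domain protein, was at 19.4 ± 2.12 FPKM with vehicle and 18.1 ± 3.54 with DEM in ABC1 (SD, n = 2 each; log2 difference -0.11, adjusted p = 0.757).

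*SNHG15* came next, at 24.3 ± 3.98 FPKM with vehicle and 14.1 ± 0.502 with DEM in ABC1 (SD, n = 2 each), a ratio of 0.581. The log2 difference was -0.73 (SE 0.15, 95% interval -1.11 to -0.35, limma adjusted p = 0.0813). It was called with the model of all 8 libraries (adjusted p = 0.0236), which called 788 of 12635 genes lower in place of 55. In HCC4006 the *SNHG15* difference was -0.22 (SE 0.14, adjusted p = 0.285) with overlapping libraries.

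The other hosts had differences nearer to 0 in ABC1. There, *SNHG8* had a log2 difference of -0.23, *SNHG5* of -0.21, *SNHG12* of -0.19, *GAS5* of -0.16 and *SNHG1* of -0.07, with adjusted p between 0.384 and 0.812. In HCC4006, *SNHG1* was lower in both DEM libraries, with a log2 difference of -0.35 (SE 0.13, 95% interval -0.66 to -0.04, limma adjusted p = 0.105). *SNHG12* had a difference of -0.29, *SNHG8* of -0.02, *SNHG5* of 0.05 and *GAS5* of 0.13 in HCC4006, with adjusted p between 0.277 and 0.937.

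The DEM response differed between the lines at an adjusted p under 0.05 for 0.636% of the 13682 genes tested and, by limma, for 0 of the 9 genes. Without adjustment, 2 of them had a p under 0.05, beside 2068 of the 13682 genes. *EPB41L4A-AS1* had an interaction of 0.73 in HCC4006 minus ABC1 (SE 0.20, limma adjusted p = 0.163) and *SNHG15* of 0.51 (SE 0.22, adjusted p = 0.329).

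**Figure D3:**
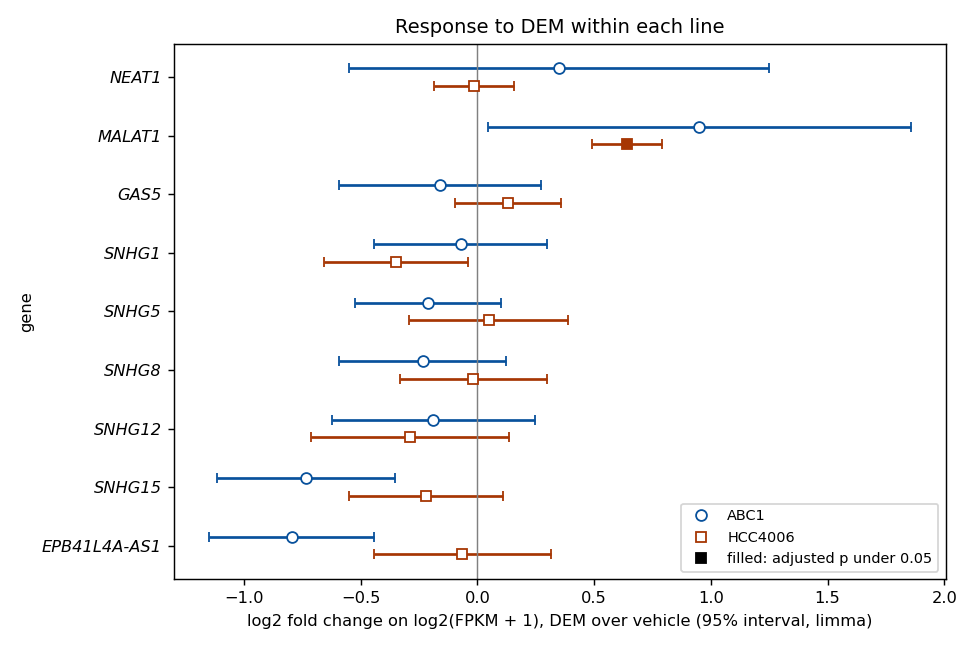
Log2 fold change of DEM against vehicle for each of the 9 genes in ABC1 and in HCC4006, with bars for 95% intervals from limma on log2(FPKM + 1) and filled points at an adjusted p under 0.05. *MALAT1* is above 0 in both lines and called in HCC4006, and all 7 hosts are under 0 in ABC1, none of them called.

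Other noncoding snoRNA hosts (21 listed, among them *SNHG3*, *ZFAS1* and *DANCR*) were given the same tests. The counts in this list and those that follow stand beside 8.45% of all genes called higher and 10.7% lower with DEM in HCC4006. Between the vehicle-treated lines they stand beside 37.3% higher and 30.4% lower. In ABC1, counts of an unadjusted p under 0.05 stand beside 2771 of 12635 genes. Counts with a model of all 8 libraries in HCC4006 stand beside 795 of 13542 genes higher and 990 lower. In HCC4006, 1 of 18 tested rose with DEM (*MEG3*, an imprinted RNA whose locus carries snoRNA clusters, by 0.38) and 2 fell (*SNHG32* by 0.54 and *SNHG14*, the imprinted host of the SNORD115 and SNORD116 arrays, by 0.46), and with a model of all 8 libraries 1 fell. In ABC1, 0 of 17 were called by limma and 2 had an unadjusted p under 0.05. Between the vehicle-treated lines, 12 of 18 were lower and 3 higher in HCC4006, with a median of -0.80, which is the direction of the hosts above. *SNHG32* differed by -2.49, *SNHG6* by -2.34 and *MEG3* by 6.38 on the log2 scale.

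Protein-coding hosts, mostly genes of ribosomal proteins and translation factors with snoRNAs in their introns, were 37. With DEM in HCC4006, 8 of them fell and 2 rose, with a median of -0.18, and with a model of all 8 libraries 2 fell and 0 rose. The falls included *NOP56*, a core protein of C/D snoRNPs (-0.50), *EIF4A1*, a translation initiation helicase (-0.44), and *RPL3*, a large subunit ribosomal protein (-0.35). In ABC1, 0 of 37 were called by limma, 2 had an unadjusted p under 0.05, and the median was -0.20. Between vehicle-treated lines, 20 of 37 were lower and 3 higher in HCC4006, among them *RPL13A* (-2.24) and *RPSA* (-1.82).

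**Figure D4:**
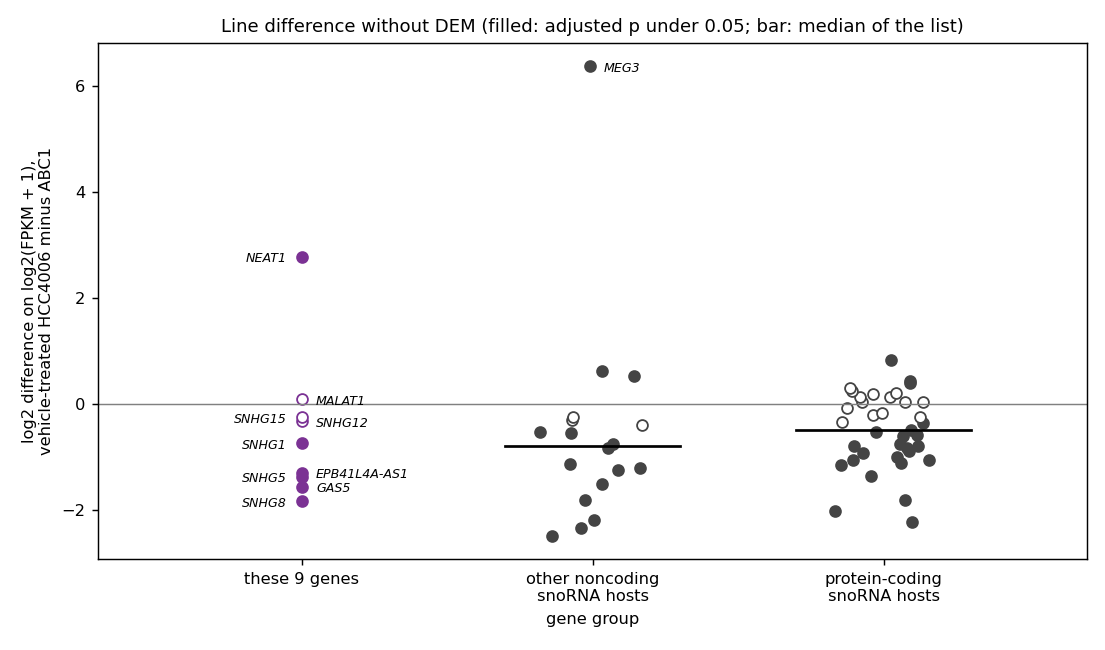
Log2 difference of vehicle-treated HCC4006 minus vehicle-treated ABC1 on log2(FPKM + 1) for the 9 genes, the 18 other noncoding snoRNA hosts and the 37 protein-coding hosts tested, with 1 point a gene, filled at a limma adjusted p under 0.05, and a bar at the median of each list. *NEAT1* lies at 2.78 and *MALAT1* at 0.09, the 7 hosts lie between -1.84 and -0.25, and the list medians are -0.80 and -0.49.

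The genes of 17 snoRNP proteins and assembly factors were tested for RNA level. With DEM in HCC4006, 7 fell and 0 rose, with a median of -0.31, and with a model of all 8 libraries 2 fell. *NOLC1*, a nucleolar chaperone of snoRNPs, fell by 0.62 and *PIH1D1*, an assembly factor of the R2TP complex, by 0.58. In ABC1, 0 of 17 were called by limma and 2 had an unadjusted p under 0.05, with a median of -0.24. The vehicle-treated lines differed in both directions, 6 higher and 6 lower in HCC4006, a share of calls close to the 67.7% over all genes. *PIH1D1* (-1.47), *NAF1* (-1.24), an assembly factor of H/ACA snoRNPs, and *FBL* (-1.23), the methyltransferase of C/D snoRNPs, had the largest calls there.

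Of 16 tested genes of paraspeckle proteins, 8 fell in RNA level with DEM in HCC4006 and 0 rose, with a median of -0.18. *NEAT1* itself was at -0.02. *HNRNPA1*, an RNA-binding splicing regulator, fell by 0.62, *HNRNPR* by 0.39 and *NUDT21*, a subunit of the 3′ end processing factor CFIm, by 0.38. With median-of-ratios scaling 5 fell and 1 rose, and with a model of all 8 libraries 1 fell. In ABC1, 0 of 16 were called by limma and 3 had an unadjusted p under 0.05. Between vehicle-treated lines 3 were higher and 4 lower in HCC4006, among them *NONO* (0.85), which paraspeckles need, *NUDT21* (0.83) and *DAZAP1* (-0.98).

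Of 12 genes of nuclear speckle proteins, 3 fell in RNA level and 0 rose with DEM in HCC4006. All 3 encode SR splicing factors, *SRSF2* (-0.59), *SRSF7* (-0.43) and *SRSF1* (-0.40). In ABC1, 0 were called by limma and 3 had an unadjusted p under 0.05. Between vehicle-treated lines 1 was higher and 4 lower in HCC4006, with *SRSF3* at -0.62, *SRSF6* at -0.61 and *PNN* at 0.50.

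The genes of 16 factors of nonsense-mediated decay, the pathway that removes many host RNAs, were tested for RNA level. With DEM in HCC4006, 2 rose and 3 fell, and with a model of all 8 libraries 1 rose and 0 fell. *UPF3B* (0.38) and *SMG5* (0.36) rose and *CASC3*, an exon junction protein, fell (-0.44). In ABC1, 0 were called by limma and 5 had an unadjusted p under 0.05. Between vehicle-treated lines 5 were higher and 4 lower in HCC4006, with *UPF1*, the central helicase, at 1.41 and *DHX34* at -1.24.

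Of the 12 genes that neighbour the 9, *SLC3A2* was the 1 called with DEM in ABC1, and *SLC3A2* and *NREP* were those called in HCC4006. *SLC3A2*, the heavy chain of amino acid transporters such as the cystine carrier, starts 51 bases from the start of *SNHG1* on the opposite strand. It was at 119 and 115 FPKM in ABC1 with vehicle and 214 and 225 with DEM, and at 120.3 and 123 in HCC4006 with vehicle and 236 and 246 with DEM. *SLC3A2* rose by 0.90 (SE 0.12, limma adjusted p = 0.0431) and by 0.98 (SE 0.06, adjusted p = 0.0012), while *SNHG1* had differences of -0.07 and -0.35. The difference between these genes was not tested. *NREP*, which lies 163061 bases from *EPB41L4A-AS1*, fell by 1.24 in HCC4006 (SE 0.11, adjusted p = 0.0028). Between vehicle-treated lines, 6 of 11 tested neighbours were higher and 3 lower in HCC4006, led by *PRSS12* (-5.38), *CCM2* (1.51) and *FRMD8* (1.41).

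Within lines, the genes whose levels followed the named RNAs most closely were found by correlation over the 8 libraries after the mean of each line had been taken off, among 11330 genes that averaged 1 FPKM or more in both lines. Nearest to *NEAT1* were *DENND1B* (r = 0.978), *GPNMB* (r = 0.964) and *N4BP2L2* (r = 0.959). *NEAT1* ran from 23.3 to 54.1 FPKM within ABC1 and from 211 to 231 FPKM within HCC4006. Its r values thus rest mostly on the ABC1 libraries and the spread between their duplicates. Nearest to the mean of the 7 hosts were *NDUFS5*, a subunit of respiratory complex I (r = 0.995), and *ANXA2*, a calcium-dependent membrane-binding protein (r = 0.992). Among the 21 pairs of hosts, r ran from -0.20 to 0.85 with a median of 0.39, and 20 were above 0. These values are descriptions over 8 libraries that share depth and preparation within a library.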

How the data were processed

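Total RNA of ABC1 and HCC4006 cells was poly(A)-selected and sequenced with a strand-specific kit. The authors deposited FPKM values, fragment numbers scaled to transcript length and to the fragments mapped, from TopHat and Cufflinks on hg19 according to the study's methods, while the submitters' processing notes name bcl2fastq 2.15.0, cutadapt 1.15, STAR 2.5.3a, SAMtools, Cuffnorm, HTSeq, DESeq2 and R 3.2.0. Which of these made the values was not settled here. FPKM is already scaled for length and library, so no count test was run, and each sample's depth is unknown. From the authors' deposited comparison tables the base mean, a signal averaged over the 4 libraries of a line, was taken as a guide to depth. Their fold changes, errors, test statistics and p-values were not used.

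Within each line, DEM libraries were set against vehicle libraries, vehicle-treated lines were compared, and the responses were compared by an interaction over 8 libraries. All fits used limma 3.58.1 in R 4.3.3, with log2(FPKM + 1) as the response and a trended prior variance. Genes averaging under 1 FPKM in the fitted libraries were left out, with Benjamini-Hochberg adjustment over all genes tested and calls at an adjusted p under 0.05. The pseudocount of 1 makes log2 differences of low genes smaller than their ratios. With 2 libraries against 2, an exact permutation test of a single gene cannot go below p = 0.333, and p-values rest on the spread between duplicates. The fit was run on simulated data whose spread was pooled over both lines, where 60.3% of simulated log2 changes of 0.5 in ABC1 were called. That recovery need not hold for the real ABC1 duplicates. In the real data, called genes had absolute log2 differences of 0.80 or more in ABC1, 0.22 or more in HCC4006 and 0.83 or more for the difference of responses.

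Symbols were found for 55534 of 57815 identifiers. The members and lists were chosen with earlier results of these data known. From each list the 3 called genes with the largest absolute log2 difference in a comparison are named, with the neighbouring genes, the 3 genes most like *NEAT1* and the 3 most like the host mean. Some genes that this rule names are not reported here. *SNHG4*, *ZNHIT3*, *TAF15*, *RBM8A* and the endothelial marker *PECAM1* were not matched by symbol. Gene positions are those of GENCODE 44 on GRCh37, whose models may be longer than those the authors counted. The alternatives were pseudocounts of 0.1 and 0.25, no minimum, a minimum of 5, median-of-ratios scaling, no trend, a model of all 8 libraries, a replicate block and leaving out each library.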

Additional observations from a re-analysis of the deposited data

How the results depend on the processing

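Of 458 values of the 9 genes under the alternatives, leaving out 1 library kept the direction and side of the threshold in 157, turned the direction in 21, and made 1 call and lost 1, and the other settings kept them in 266, made 9 calls, lost 1 and turned 2. The 2 turned were *NEAT1* (0.016) and *SNHG8* (0.013) in HCC4006 with median-of-ratios scaling, both next to 0. With a model of all 8 libraries, 2 of the 9 genes were called lower in ABC1 and 0 higher in HCC4006. Over all genes that model called 12.4% in ABC1 in place of 1.2%, and 13.2% in HCC4006 in place of 19.1%. By its construction that model shares the spread of both lines.

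The replicate numbers are shared across groups in the labels, with no statement that they mark a shared culture. Same-numbered libraries deviated together with r = 0.257 in ABC1 and 0.0538 in HCC4006 over 13682 genes, with 1 such check per line. With the replicate block, 2 of the 9 genes were called higher in ABC1 (*NEAT1* and *MALAT1*), 2 lower in ABC1 (*EPB41L4A-AS1* and *SNHG15*) and 1 lower in HCC4006 (*SNHG1*). Over all genes the block gave 2348 calls in ABC1 in place of 152, and 13 in place of 87 for the difference of responses.

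Without a library, the count of the 9 genes called higher in HCC4006 than ABC1 ran from 1 to 2, reaching 2 with *MALAT1* added when ABC1 vehicle replicate 0 was left out. The log2 values that turned ran as follows. In ABC1, *NEAT1* ran from -0.076 to 0.776, *GAS5* from -0.376 to 0.059, *SNHG1* from -0.203 to 0.060 and *SNHG12* from -0.398 to 0.021. In HCC4006, *NEAT1* ran from -0.081 to 0.050, *SNHG5* from -0.161 to 0.256, *SNHG8* from -0.176 to 0.142 and *EPB41L4A-AS1* from -0.187 to 0.057. In the difference of responses, *NEAT1* ran from -0.791 to 0.061, *MALAT1* from -0.77 to 0.15 and *SNHG12* from -0.34 to 0.14, and *MALAT1* between vehicle-treated lines ran from -0.38 to 0.55.

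List counts that moved did so mostly with the model of all 8 libraries. Over all genes that model called 779 higher and 788 lower in ABC1, and 795 higher and 990 lower in HCC4006. In ABC1 it called 1 other noncoding host higher, 1 coding host lower, 1 snoRNP gene lower, 2 paraspeckle genes lower, 1 nuclear speckle gene higher and 1 lower, and 2 decay factors higher. In HCC4006 it called 1 other noncoding host lower, 0 coding hosts higher and 2 lower, 2 snoRNP genes lower, 1 paraspeckle gene lower, and 1 decay factor higher and 0 lower. Median-of-ratios scaling called 1 paraspeckle gene lower in ABC1, and in HCC4006 1 paraspeckle gene higher and 5 lower and 1 nuclear speckle gene higher.

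Over all genes, ABC1 gave 0 calls without a minimum, 231 at a minimum of 5, 251 with median-of-ratios scaling, 33 without the trend and 1567 with the model of all 8 libraries, and HCC4006 gave 370 without a minimum in place of 2591. The difference of responses gave 87 calls, with 20 and 22 at pseudocounts of 0.1 and 0.25 and 403 without a minimum. With 1 library left out, ABC1 gave 18 to 69 calls, HCC4006 gave 634 to 1028 calls, the difference 4 to 41 and the vehicle-treated lines 5572 to 9005. *EPB41L4A-AS1* was not tested in HCC4006 at a minimum of 5. Depth limits the low hosts most, since no counts for single libraries entered the tests.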

Other observations

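*SNHG3*, another noncoding host, was looked at after its values were seen. It was at 30.9 and 27.7 FPKM in ABC1 with vehicle and 47.2 and 43.6 FPKM with DEM, and at 17.5 and 16.2 FPKM in HCC4006 with vehicle and 19.8 and 21.0 FPKM with DEM. Both DEM libraries were above both vehicle libraries in each line, the opposite direction to the 7 hosts in ABC1. *DANCR*, of the same list, was also above without overlap in both lines, as were 25.5% of all genes in ABC1 and 29.3% in HCC4006. Of the 17 genes of that list tested in ABC1, 10 had a log2 difference under 0. The *SNHG3* difference was 0.62 in ABC1 (SE 0.13, limma adjusted p = 0.0802) and 0.26 in HCC4006 (SE 0.09, adjusted p = 0.0991). *SNHG3* thus passed the test in neither line.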
